A study of Mus musculus with 23 samples.

Results

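Heme is made in 8 enzymatic steps that begin and end in the mitochondrion, and the genes described here are 8 that encode enzymes of that route (2 of them for the first step), and that of the mitochondrial carrier Slc25a38, which supplies its glycine. The 9 genes were chosen by gene symbol (Alas1, Alas2, Alad, Uros, Urod, Cpox, Ppox, Fech and Slc25a38), and all 9 were among the 14364 genes tested of 67228 gene entries in the count table. RNA-Seq had been performed on marrow-depleted femur and tibia from one hind limb of 23 female C57BL6/N mice at 11 weeks of age, with 1 mouse per library. The wild-type mice were given saline (WT Control, n = 5) or streptozotocin and were then diabetic for 3 weeks (WT T1D, n = 6). Mice with a global Sarm1 knockout were given saline (KO Control, n = 6) or the same streptozotocin course with 3 weeks of diabetes (KO T1D, n = 6). Each injection of streptozotocin was 100 mg/kg, given on 2 days and again later where fed glucose had not risen enough. Streptozotocin destroys the insulin-producing cells of the pancreas, and Sarm1 encodes an NADase best known from degenerating axons. Wild-type mice were littermates of the knockouts from heterozygous pairs or were bought as background-matched animals, and the labels do not say which wild-type library came from which source.

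The first and rate-limiting step, the joining of glycine with succinyl-CoA, is carried out by ALAS, which has 2 genes. Alas1 serves housekeeping needs in most cells, where heme goes into cytochromes and other enzymes, and heme represses it. Alas2 is used by developing red cells, where GATA1 drives its transcription and iron controls its translation, and most heme there is destined for hemoglobin. The later enzymes are shared by all cells and are raised in erythroid cells, which stay in bone after the marrow has been spun out.

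The start regions of the 2 ALAS genes are shown because the comparison of Alas1 with Alas2 is the main contrast here. Alas2 lies at chrX:150547417-150570622 and Alas1 at chr9:106233455-106247954. Both windows are the 250 bases before a start site from RefSeq on GRCm38.p6, written 5′ to 3′ on the strand of the gene. Capitals mark matches, on either strand, to the GATA letters (GATA with A or T before it and A or G after it) or to the CACCC-box letters CCNCNCCC, some of which overlap one another in Alas2.
Alas2, chrX:150547167-150547416, + strand: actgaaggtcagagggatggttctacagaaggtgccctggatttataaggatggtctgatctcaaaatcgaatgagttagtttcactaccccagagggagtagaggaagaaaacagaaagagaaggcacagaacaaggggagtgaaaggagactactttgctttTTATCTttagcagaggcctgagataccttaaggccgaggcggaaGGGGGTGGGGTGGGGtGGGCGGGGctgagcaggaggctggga
Alas1, chr9:106247955-106248204, − strand: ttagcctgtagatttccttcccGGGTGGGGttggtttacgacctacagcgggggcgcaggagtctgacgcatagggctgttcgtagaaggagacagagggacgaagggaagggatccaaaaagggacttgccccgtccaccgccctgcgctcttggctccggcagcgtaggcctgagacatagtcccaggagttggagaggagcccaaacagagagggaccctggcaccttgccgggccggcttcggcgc
The Alas2 window held 1 GATA match and 4 CACCC matches, and the Alas1 window held no GATA match and 1 CACCC match. Of the 32851 RefSeq promoter windows of the same build, each with 50 more bases after the start, 29.8% held the GATA letters and 49.5% held the CACCC letters, so neither set of letters is rare. A RefSeq window was matched for 8 of the 9 genes.

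The 5′ UTR of the Alas2 message also carries the iron-responsive element by which iron regulatory proteins hold back its translation. In the 126-base 5′ UTR of the longer Alas2 transcript of GENCODE vM21 it spans positions 84 to 113, shown here with the hairpin loop in capitals.
Alas2 iron-responsive element: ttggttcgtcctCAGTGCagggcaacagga
The annotated Alas1 coding transcripts held no such element in their 5′ UTRs, and 13 of 21852 coding genes (0.0595%) held one in the first 100 bases of a transcript, counted as the loop CAGTGN (with the last base not G) over a stem of 5 paired bases with a C just before the stem. That stretch is shorter than the 126-base 5′ UTR above, in which the element runs to position 113. These sequences describe the genes and were not measured in the mice.

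Library totals ranged from 16938101 to 20135592 counts. The labelled tissue was present in every library, since none of the 12 osteoblast and osteocyte markers was at 0 in any mouse. The WT T1D libraries of mice A3905 and A3906 stood apart, with summed osteoblast and osteocyte markers of 6477 and 5050 CPM (a gene's share of the library's counts after TMM scaling) against 53248 to 118401 in the Control mice of both genotypes. Sarm1 itself had between 5 and 32 counts in each library and was not called different in mice labelled KO. Its log2 fold change of KO over WT was −0.55 ± 0.38 SE in Control mice and 0.78 ± 0.37 in T1D mice (edgeR quasi-likelihood adjusted p = 0.999 and 0.281), so KO below means the label. Reads from exons outside a deletion would also be counted, so this gene-level value does not check the allele.

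Alas2 had the highest level of the 9 genes in length-corrected units in all 23 mice. Its mean was 867 ± 167 TPM (the same kind of share corrected for transcript length, SD, n = 23), followed by Fech, the ferrochelatase that inserts iron in the last step, at 289 ± 48.7 TPM. The ranges of Alas2 and Fech did not overlap. Alad, which joins 2 ALA molecules, followed at 207 ± 23.4 TPM. Urod and Cpox, which trim the side chains of the porphyrin ring, had 144 ± 18.9 and 121 ± 16.0 TPM, and Ppox, which oxidizes the ring, had 102 ± 13.1 TPM. Alas1 was at 78.2 ± 13.1 TPM, Uros, which closes the ring, at 65.7 ± 6.82 TPM, and Slc25a38 at 59.0 ± 5.15 TPM. From Fech downward the ranges of neighbours in this order overlapped, although within a mouse the order held in 23 of 23 for Fech over Alad and for Alad over Urod, in 20 to 22 for 4 of the other 5 pairs, and in 17 of 23 for Alas1 over Uros.

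With T1D in WT mice, 8 of the 9 genes had a positive log2 fold change and Alas1 a negative one. Of the 9 genes, 2 rose past the threshold (Fech and Cpox, edgeR quasi-likelihood test with Benjamini-Hochberg adjusted p under 0.05), against 1.5% of all tested genes called higher, and none fell. At an unadjusted p under 0.05, 8 of the 9 were higher, against 11% of all tested genes. The median log2 fold change of the 9 genes was 0.45, and that of all tested genes was −0.01. Adjusted p values of the 8 genes lay between 0.0451 and 0.101, close to both sides of the threshold, so which of them pass depends on small changes in the fit. In bulk RNA a change of this kind cannot be split into more cells of one type and more RNA per cell.

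**Figure D1:**
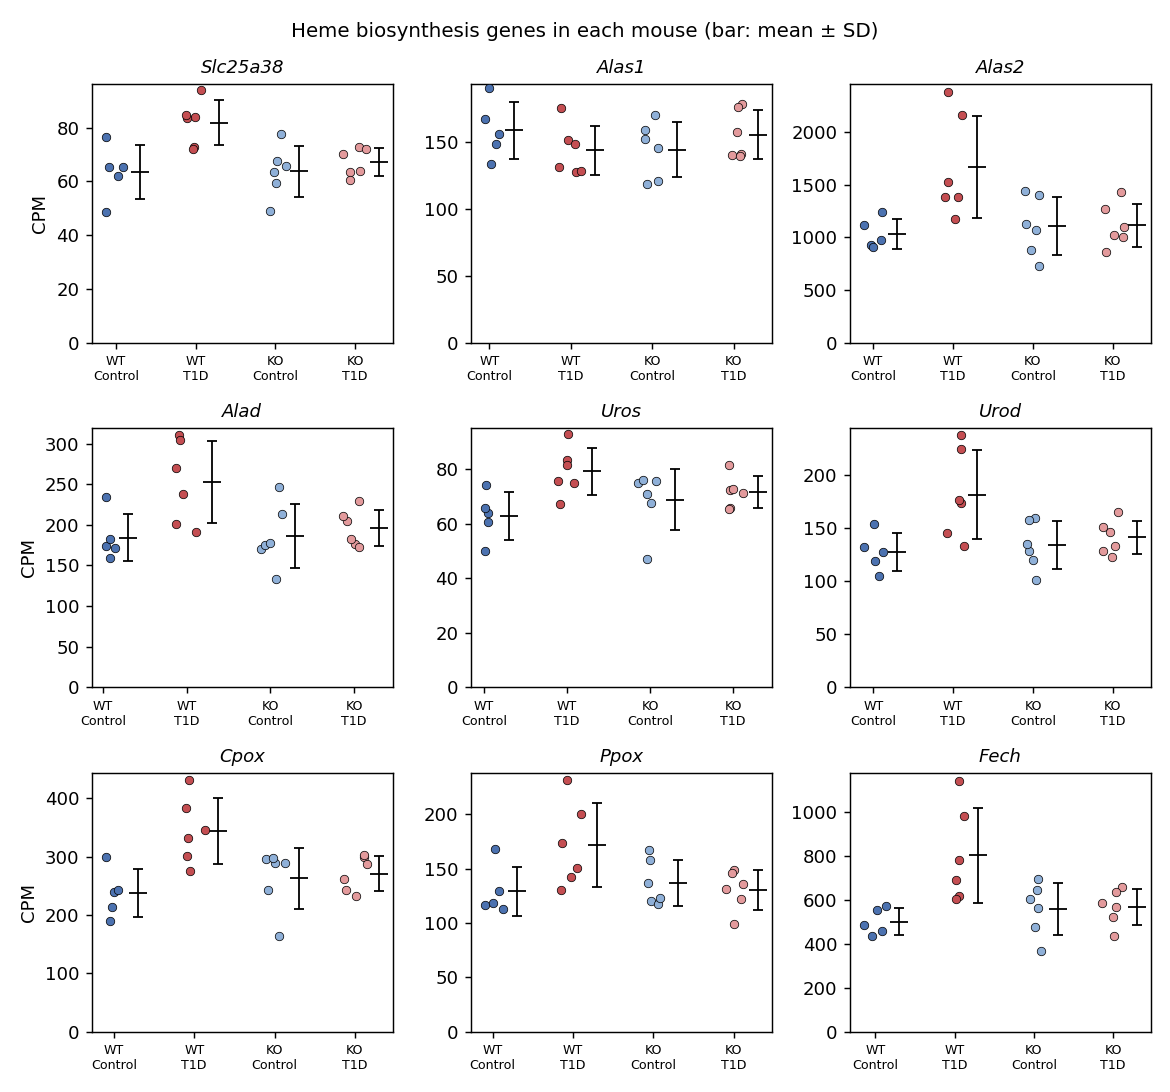
Level of each of the 9 genes in each of 23 mice, in CPM after TMM scaling on linear axes from 0, by group (1 point per mouse, bar: mean ± SD beside it). All 6 WT T1D mice lie above every WT Control mouse for Fech and 5 of 6 do for Alas2, whereas the Alas1 groups overlap.

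Alas2 was at 906, 931, 979, 1118 and 1238 CPM in the 5 WT Control mice and had a lowest value of 1169, a median of 1454 and a highest value of 2376 CPM in the 6 WT T1D mice. Of the 6 T1D mice, 5 were above every Control mouse, and the 2 highest values were those of A3905 and A3906. The change was 1.61-fold (log2 0.69 ± 0.19 SE), which did not pass the threshold in edgeR (adjusted p = 0.0514) and did in DESeq2 (adjusted p = 0.00967).

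Fech was at 434, 460, 487, 555 and 569 CPM in WT Control mice and ranged from 604 to 1139 CPM with a median of 736 in WT T1D mice. It was the only one of the 9 genes whose WT groups did not overlap, which held for 1.32% of all tested genes in the same direction. The rise was 1.60-fold (log2 0.68 ± 0.17 SE, edgeR adjusted p = 0.0451). Cpox, the coproporphyrinogen oxidase, was at 190, 213, 240, 243 and 300.2 CPM in WT Control mice and ranged from 275 to 431 CPM with a median of 339 in WT T1D mice. It rose 1.45-fold (log2 0.54 ± 0.14 SE, edgeR adjusted p = 0.0494), and 5 of 6 T1D mice were above every Control mouse.

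Urod, the uroporphyrinogen decarboxylase, had a WT log2 fold change of 0.51 ± 0.14 SE (edgeR adjusted p = 0.0524), with values of 105 to 154 CPM in Control and 133 to 237 CPM in T1D mice. Alad was 0.45 ± 0.15 on the same scale and Ppox 0.41 ± 0.14, and their groups overlapped. The 2 genes with the lowest levels, Slc25a38 and Uros, had log2 fold changes of 0.36 ± 0.11 and 0.33 ± 0.11. None of these 5 passed the threshold in edgeR, while Alad, Urod and Slc25a38 did in DESeq2, where 6 of the 9 genes were called higher against 4.13% of all tested genes. Without the filter on low counts none of the 9 was called (0.333% of genes called higher).

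Alas1 differed from the rest in sign. Its values were 133, 148, 156, 167 and 190 CPM in WT Control mice and ranged from 128 to 175 CPM with a median of 140 in WT T1D mice. The groups overlapped, with 3 of 6 T1D mice below every Control mouse, and the log2 fold change was −0.14 ± 0.11 SE (edgeR adjusted p = 0.453). On the TPM scale the median of all tested genes was itself shifted by −0.24 with T1D in WT mice. Alas1 was called lower on that scale (limma on log2 (TPM + 1), log2 −0.43 ± 0.12, adjusted p = 0.0143, with 35.4% of tested genes called lower, and 34.4% with a pseudocount of 0.1), which is −0.19 relative to the median of all genes. Alas2 and Fech were 0.60 above that median and were both called higher on this scale (adjusted p = 0.0484 and 0.0354), as were 0.578% of tested genes. With a pseudocount of 0.1 only 1 of the 9 was called higher (0.536% of tested genes).

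The level of Alas2 relative to Alas1 within each mouse does not depend on library scaling. The log2 ratio of their CPM was 2.70 ± 0.26 (SD, n = 5) in WT Control mice and 3.49 ± 0.29 (n = 6) in WT T1D mice, and every one of the 6 T1D mice was above every Control mouse. The difference was 0.79 (two-sided exact permutation test, p = 0.00216, the smallest that 462 splits allow, Benjamini-Hochberg adjusted over 3 tests p = 0.00649). In length-corrected units Alas2 was 9.11 ± 1.49 times Alas1 in WT Control and 15.9 ± 3.41 times in WT T1D mice.

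In KO mice the log2 ratio was 2.91 ± 0.52 (SD, n = 6) in Control and 2.83 ± 0.40 (n = 6) in T1D mice, a difference of −0.08 (exact permutation test, p = 0.755), and the T1D mice lay within the range of the Controls. The ratio in TPM was 11.0 ± 3.87 in KO Control and 10.2 ± 2.80 in KO T1D mice. The T1D difference in KO mice minus that in WT mice was −0.87 (two-sided exact permutation test over 426888 relabellings of genotype, p = 0.0161, adjusted over 3 tests p = 0.0242). That difference between genotypes did not pass the threshold without A3905 and A3906 (−0.72, adjusted p = 0.0684), without WT Control mouse A3904 (−0.77, adjusted p = 0.0580), or without KO Control mouse A3672 (−0.74, adjusted p = 0.0507), all by the exact permutation test. The WT difference stayed between 0.69 and 0.85 when any 1 mouse was left out. It was 0.63 without A3905 and A3906 together (exact permutation test, adjusted p = 0.0238). Among the mice with IDs from A36 to A39 it was 0.95 (exact permutation test, adjusted p = 0.0429).

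**Figure D2:**
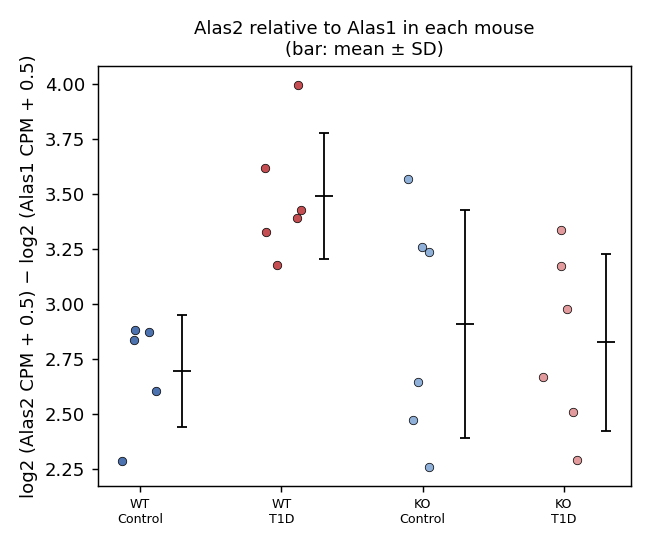
Log2 ratio of Alas2 to Alas1 in each of 23 mice by group, from CPM + 0.5 (1 point per mouse, bar: mean ± SD beside it). The 6 WT T1D mice sit above the 5 WT Control mice, while the 6 KO T1D mice lie within the range of the KO Control mice.

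Without the 2 libraries that stood apart, each of the 8 genes other than Alas1 kept a positive change in WT mice, from 0.21 ± 0.13 for Ppox to 0.42 ± 0.15 for Fech, and Alas2 was 0.40 ± 0.17. None of the 9 genes, and none of all tested genes, passed the edgeR threshold then, and 6 of the 8 genes were higher at an unadjusted edgeR p under 0.05, which 5.36% of all tested genes also were. Alas1 was lower at an unadjusted p of 0.0479 (−0.24 ± 0.12), as were 5.62% of all tested genes under the 0.05 limit. Mouse IDs beginning with A17 occurred in the WT groups only (1 Control and 3 T1D mice). Among the 19 mice with IDs from A36 to A39, which include A3905 and A3906, 8 of the 9 genes were called higher against 7.82% of all tested genes, with Alas2 at 0.97 ± 0.23 and Fech at 0.91 ± 0.21 (edgeR adjusted p = 0.0166 and 0.0136).

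In KO mice T1D brought no call among the 9 genes (edgeR adjusted p = 1.00 for each, 0% of all tested genes called, and also 0 in DESeq2). No gene of the 9 had an unadjusted p under 0.05, against 3.15% of all tested genes. Log2 fold changes lay between −0.07 (Ppox) and 0.11 ± 0.11 SE (Alas1), with Alas2 at 0.01 ± 0.18 and Fech at 0.03 ± 0.16. Alas2 ranged from 732 to 1437 CPM with a median of 1096 in KO Control mice and from 864 to 1430 CPM with a median of 1062 in KO T1D mice, so the T1D mice lay within the range of the Controls. Alas1 ranged from 119 to 170 CPM with a median of 149 in KO Control mice and from 140 to 179 CPM with a median of 149 in KO T1D mice.

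The difference between the T1D changes of the 2 genotypes was negative for 8 of the 9 genes and positive for Alas1. It was −0.68 ± 0.26 for Alas2, −0.65 ± 0.23 for Fech, −0.50 ± 0.20 for Cpox, −0.48 ± 0.20 for Ppox and −0.43 ± 0.19 for Urod on the log2 scale. None passed the threshold in the edgeR interaction test (adjusted p = 0.479 for these 5 genes), nor did any of all tested genes, by edgeR or by DESeq2. These 5 genes had an unadjusted p under 0.05 and were negative, as did 5.4% of all tested genes. Alas1 was at 0.25 ± 0.15 (adjusted p = 0.554).

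**Figure D3:**
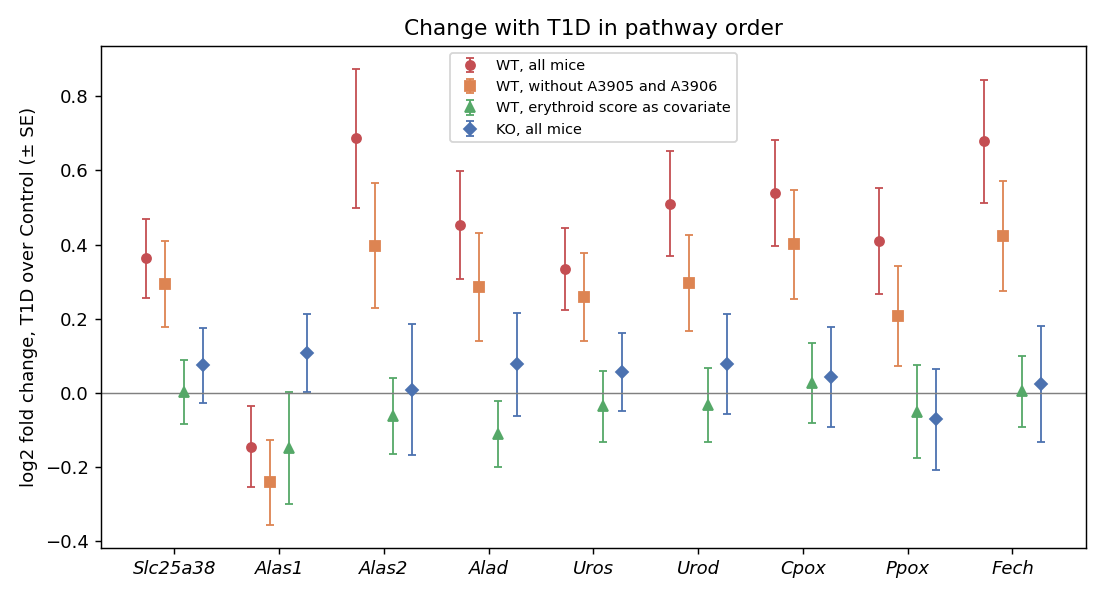
Log2 fold change of T1D over Control (± SE) for the 9 genes in pathway order, for WT mice with all mice, without A3905 and A3906, and with the erythroid score added as a covariate, and for KO mice. Apart from Alas1, the WT changes with all mice lie between 0.33 and 0.69, and they lie near 0 with the covariate and in KO mice.

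Between genotypes, Control mice did not differ in any of the 9 genes past the threshold (0.0278% of all tested genes called). The log2 fold changes of KO over WT lay between −0.14 ± 0.11 SE for Alas1 and 0.15 ± 0.16 for Fech, and none had an unadjusted p under 0.05 (4.8% of all tested genes). In T1D mice none of the 9 was called either (0.0905% of all tested genes), although 7 were lower in mice labelled KO at an unadjusted p under 0.05, against 8.65% of all tested genes. Alas2 was −0.58 ± 0.18 (edgeR adjusted p = 0.145) and Fech −0.50 ± 0.16 (adjusted p = 0.155), and in each 4 of the 6 KO T1D mice lay below every WT T1D mouse. DESeq2 called 1 of the 9 lower, Alas2, against 1.06% of all tested genes, and edgeR in the A36 to A39 mice called 4 lower against 5.12%. These contrasts share their mice with the T1D comparisons above.

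Markers of red cell precursors moved with the route. Of the 15 erythroid markers tested (hemoglobin chains, red cell membrane proteins and others), 8 rose with T1D in WT mice, against 1.5% of all tested genes. At an unadjusted p under 0.05 all 15 were higher, against 11% of all tested genes. The median log2 fold change of the 15 markers was 0.51. Hba-a1, Hba-a2 and Hbb-bs, the globin genes with the highest levels, were at 0.69 ± 0.19, 0.60 ± 0.19 and 0.89 ± 0.20, and Hba-a2 missed the threshold (edgeR adjusted p = 0.0499, 0.0707 and 0.0367). Slc4a1, Trim10, Rhag, Ermap and Epb42 also rose, with log2 fold changes of 0.44 to 0.94. Hba-a1 and Hba-a2 are near-identical copies whose reads RSEM divides between them.

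The summed erythroid markers ranged from 98073 to 143590 CPM in WT Control, 126716 to 237546 in WT T1D, 81190 to 165377 in KO Control and 109465 to 153065 in KO T1D mice, and no marker was at 0 in any mouse. The mean log2 level of the markers (the erythroid score) was 9.49 ± 0.21 (SD, n = 5), 10.05 ± 0.27 (n = 6), 9.59 ± 0.31 (n = 6) and 9.67 ± 0.12 (n = 6) in these groups. With this score, which itself differed between the WT groups, as a covariate in the edgeR fit, the WT log2 fold changes of the 8 genes other than Alas1 lay between −0.11 ± 0.09 SE (Alad) and 0.03 ± 0.11 (Cpox), none was called, and no gene of the whole table was called. Alas2 was then −0.06 ± 0.10 and Fech 0.0041 ± 0.10, while Alas1 stayed at −0.15 ± 0.15.

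Across the 23 mice, Alas2 followed the erythroid score (Pearson r = 0.96, Spearman rho = 0.95, permutation test p = 1e-05, the smallest that 100000 resamples allow, adjusted over 7 relations p = 7e-05). The relation held without the 2 mice farthest from the median score (r = 0.93, n = 21), among the A36 to A39 mice (r = 0.96, n = 19), after each group's mean was removed (r = 0.94), and in KO mice (r = 0.93, n = 12). Alas1 did not follow it (r = −0.15, rho = −0.25, permutation test p = 0.507). For Alas1 r was −0.17 without the 2 farthest mice, −0.11 among the A36 to A39 mice and 0.0049 after group means were removed. It was −0.36 without A3905 and A3906 and −0.32 in KO mice. The other 7 genes had r between 0.83 (Ppox) and 0.96 (Fech) with the score, given as a description.

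Alas1 instead followed the score of 12 neutrophil and monocyte markers (r = 0.69, rho = 0.69, permutation test p = 0.00029, adjusted over 7 relations p = 0.000677). It was 0.71 without A3905 and A3906, the mice farthest from the median of that score, 0.69 among the A36 to A39 mice, and 0.79 after group means were removed. Alas2 had r = 0.11 with the same score, and −0.55 without these 2 mice. Within the 12 KO mice r with this score was −0.77 for Alas2 and 0.78 for Alas1. The markers S100a8, S100a9 and Ngp, with the highest levels of that list, had WT log2 fold changes of 0.29 ± 0.18, 0.32 ± 0.18 and 0.16 ± 0.17, and none of the 12 was called. Alas1 and Alas2 had r = −0.19 with each other (permutation test p = 0.387, adjusted over 7 relations p = 0.591), which was −0.48 without A3905 and A3906 (n = 21) and −0.56 within the 12 KO mice.

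**Figure D4:**
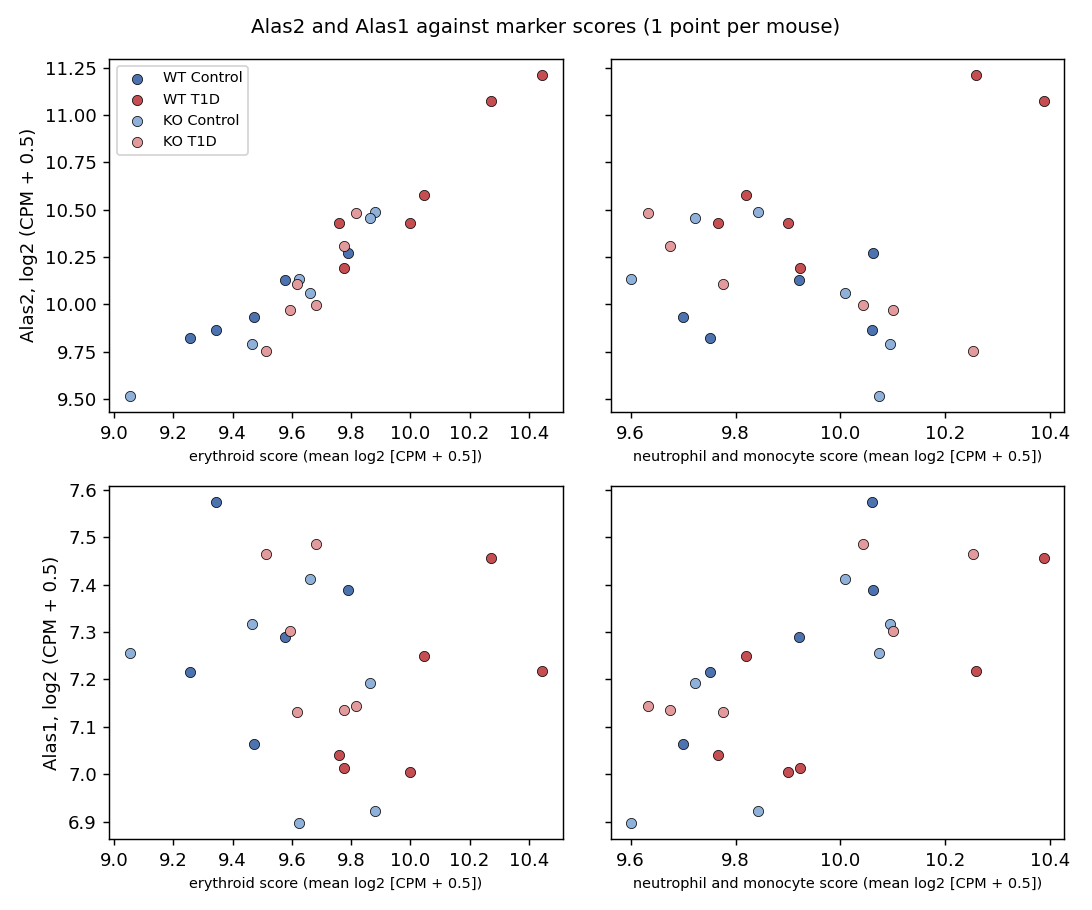
Log2 (CPM + 0.5) of Alas2 (top) and Alas1 (bottom) against the erythroid score (left) and the neutrophil and monocyte score (right), 1 point per mouse, coloured by group. Alas2 lies along a line with the erythroid score (r = 0.96), and Alas1 rises with the neutrophil and monocyte score (r = 0.69).

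Osteoblast and osteocyte markers were lower on balance in WT T1D mice, where 2 of 12 were called lower (Ibsp, log2 fold change −0.78, and Runx2, −0.66) and the median was −0.74. Of all 14364 tested genes, 119 were called lower in the same comparison. Bglap, Col1a1 and Bglap2, with the highest levels of that list, were at −0.66 ± 0.64, −0.91 ± 0.49 and −0.72 ± 0.62 and were not called. Alas2 had r = −0.78 with this score but rho = −0.45 (permutation test, adjusted over 7 relations p = 0.000455 for r and 0.0738 for rho; raw p = 0.00013 and 0.0316), and r was −0.41 without A3905 and A3906, so that relation rests on those mice. For Alas1 r was −0.15 (permutation test p = 0.502). Of the other markers, none of 7 for B cells and none of 6 for skeletal muscle was called with T1D in WT mice. Summed B cell markers were nonetheless 179 and 218 CPM in A3905 and A3906, against 387 to 1018 CPM in the Control mice of both genotypes. For adipocytes 1 of 4 was called higher (Fabp4, log2 1.36 ± 0.32), against 1.5% of all tested genes. The part of erythroid, myeloid or bone cell content in the changes of the heme genes was not tested. The fit with the erythroid score cannot give it, because that score itself differed between the WT groups.

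The genes whose levels were most like Alas2 over the 23 mice, among 13306 genes with a mean of at least 1 CPM, were Fech (r = 0.97), Tspan33, Isca1, Mkrn1 and Bpgm (r = 0.96 for the fifth). Urod ranked 31, Alad 32, Slc25a38 191, Ppox 224, Cpox 225 and Uros 537, while Alas1 ranked 8073. The genes most like Alas1 were Lcp1 (r = 0.79), Vsig10l, Pgd, Ap5b1 and Pxn (r = 0.77), and the other 8 genes of the route ranked between 7221 and 11014 there. All points share their library with the gene compared, and these r values carry no test.

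Genes around the pathway were counted from lists of fixed membership. Of 13 genes for mitochondrial transport and the iron-sulfur support of heme synthesis, 1 rose with T1D in WT mice, against 1.5% of all tested genes. It was Abcb6, a porphyrin transporter (log2 0.43, edgeR adjusted p = 0.0460). At an unadjusted p under 0.05, 8 of the 13 were higher, against 11% of all tested genes, and the median of the list was 0.32. Slc25a37 (mitoferrin, the iron importer of erythroid mitochondria), Slc25a39 and Glrx5 (an iron-sulfur assembly protein), which had the highest levels, were at 0.46 ± 0.15, 0.42 ± 0.13 and 0.26 ± 0.15. In KO mice none of the 13 was called with T1D and the median was 0.04.

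Of 11 regulators of the ALAS genes, 1 rose with T1D in WT mice, against 1.5% of all tested genes. It was Eif2ak1, the heme-regulated kinase that slows globin translation (log2 0.42 ± 0.10, edgeR adjusted p = 0.0418). Klf1 and Gata1, the erythroid transcription factors, were at 0.56 ± 0.17 and 0.43 ± 0.15 and did not pass the threshold (adjusted p = 0.0613 and 0.0925). The median of the list was 0.32 in WT and 0.01 in KO mice. Of 8 genes for the breakdown and movement of heme, none was called in WT mice. At an unadjusted p under 0.05, 3 of the 8 were higher, against 11% of all tested genes. Blvrb, a biliverdin reductase, was at 0.51 ± 0.14, Hmox1, the heme oxygenase, at 0.28 ± 0.15 and Slc48a1, a heme transporter, at 0.30 ± 0.09. In KO mice that list had a median of 0.06 with no call.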

How the data were processed

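Gene expression had been measured in 23 bone libraries, 1 mouse each, grouped by their labels. The authors deposited expected counts from RSEM, rounded to whole numbers, and TPM values, both made from strand-marked oligo dT libraries read in pairs on DNBSEQ. SOAPnuke had removed poor reads, and HISAT and Bowtie2 had mapped the rest on GRCm38.p6. Those steps are part of the values and were not repeated. Counts and TPM were joined by gene ID, and CPM were computed from the counts.

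The 14364 genes that reached 10 counts in 5 or more mice were fitted in edgeR 4.0.16 (R 4.3.3) with TMM scaling and a quasi-likelihood model with 1 mean per group over all mice, from which the genotype, diabetes and interaction contrasts were taken. P values were Benjamini-Hochberg adjusted over all tested genes, with a threshold of 0.05. SE are the size of the log2 fold change divided by the square root of F. DESeq2 1.42.0 and limma 3.58.1 on log2 (TPM + 1) were alternatives. Ratios and marker scores used log2 (CPM + 0.5). Permutation tests used scipy 1.17.1 and numpy 2.4.6 in Python 3.11.15. The procedure was tested on simulated data.

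Members and lists were chosen with earlier results of these data known. Named genes were the members, Sarm1, the 3 genes of each list with the highest mean TPM, those past the threshold, and the 5 genes nearest to Alas1 or Alas2. A few of these are left out here. One listed erythroid marker was not analysed here. B cell, skeletal muscle and adipocyte markers were scored beside the others and are given mainly as counts. Start regions and gene positions came from RefSeq on GRCm38.p6, and transcripts from GENCODE vM21 on GRCm38. P values of group differences set them against the spread between these mice, with no term for the source or ID of the mice. Counting precision is high for the members and low for Sarm1.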

Additional observations from a re-analysis of the deposited data

Results flagged for a closer look

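A few results met a rule for closer inspection. Of 40 gene and group combinations examined for a single far mouse, 2 had one, and chance alone gives about 1 in 20. In KO Control mice the lowest Uros value, 47.1 CPM, was separated from the next by 0.754 of the range on the log2 scale, and the lowest Cpox value, 165 CPM, by 0.651 of the range. Both belonged to mouse A3766, which also had the lowest Alas2 (732 CPM) and Fech (369 CPM) and the lowest erythroid score of the 23 mice (9.05). Its Alas1 value, 152 CPM, lay near the middle of its group. The third was the change in the Alas2 to Alas1 log2 ratio with T1D, which differed between genotypes by −0.87 (exact permutation test, adjusted over 3 tests p = 0.0242) and ranged from −1.004 to −0.74 when 1 mouse was left out. What distinguishes A3766 was not tested.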

How the results depend on the processing

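The count of heme genes called higher with T1D in WT mice was 2 with all mice. It was 6 with DESeq2, 0 without the count filter, 1 with limma on log2 (TPM + 0.1), 8 in the A36 to A39 mice, 0 without A3905 and A3906, and 0 with the erythroid score as a covariate. Limma called 1 of the 9 genes (Alas1) lower at either TPM pseudocount. Over all genes, 334 were called, against 1002 with DESeq2, 88 without the filter, 5164 and 5019 with limma on TPM + 1 and TPM + 0.1, 2211 in the A36 to A39 mice, 0 without A3905 and A3906 and 0 with the covariate. In T1D mice, 1 of the 9 genes (Alas2) was called lower in KO with DESeq2 and 4 in the A36 to A39 mice. The ratio difference between genotypes was −0.72 without A3905 and A3906.

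With 1 mouse left out at a time, the WT log2 fold changes of the heme genes kept their sign. Ranges were 0.57 to 0.77 for Alas2, 0.56 to 0.75 for Fech and 0.47 to 0.64 for Cpox. They were 0.31 to 0.52 for Ppox and −0.20 to −0.07 for Alas1. The same fits gave 0 to 8 heme genes called higher in WT mice and 0 to 1262 genes called in all. The count was 7 without A1757, 8 without A1764, 3 without A1758, 6 without A3909 or A3766, 1 without A3672 or A3683, 2 without A3674, and 0 without any one of A3767, A3903, A3904, A3907, A1787, A3905, A3906, A3679, A3680, A3670, A3673, A3681, A3682, A3675 or A3676. Over all tested genes, those called higher were 402 without A1757, 583 without A1764, 330 without A1758, 675 without A3909 and 354 without A3766. They were 126 without A3672, 147 without A3683 and 193 without A3674, with 14328 to 14350 genes tested in these fits. In the fits with a count of 0 heme genes, 0 to 100 genes were called higher. The ratio difference ranged from 0.69 to 0.85 in WT mice, −0.21 to 0.050 in KO mice and −1.004 to −0.74 between genotypes.

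The direction of some changes turned. With the erythroid covariate, WT changes were −0.063 (Alas2), −0.11 (Alad), −0.036 (Uros), −0.033 (Urod) and −0.051 (Ppox), KO changes −0.064 (Alas2) and −0.040 (Fech), differences between genotypes 0.13 (Alad), 0.057 (Uros), 0.053 (Urod) and 0.034 (Slc25a38), KO over WT in Control mice −0.061 (Alas2), −0.10 (Alad), −0.038 (Urod) and −0.066 (Slc25a38), and KO over WT in T1D mice 0.030 (Alad), 0.11 (Uros), 0.016 (Urod) and 0.018 (Cpox). With limma on TPM + 1 and TPM + 0.1, KO changes were −0.0157 and −0.0157 (Alas2) and −0.0021 and −0.0020 (Fech), KO over WT in Control mice −0.036 and −0.037 (Alad) and −0.044 and −0.045 (Slc25a38), and KO over WT in T1D mice 0.044 and 0.044 (Uros). With 1 mouse left out, KO changes ranged from −0.092 to 0.091 (Alas2), −0.076 to 0.091 (Fech), −0.0087 to 0.17 (Alad), −0.038 to 0.086 (Uros) and −0.068 to 0.081 (Cpox), and KO over WT in Control mice from −0.090 to 0.12 (Alad) and −0.080 to 0.079 (Slc25a38). The cause was not tested. No paired analysis was possible because the groups share no mouse numbers.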
